A study of Mus musculus with 32 samples.

Results

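The 100 genes described here were NONCODE long non-coding RNA genes whose level fell most between 8 and 18 days post partum (dpp) in germ cells of juvenile mice. They were chosen from the NONCODE genes of the juvenile gene table, as those with the largest mean log2(TPM + 1) at 8 dpp minus the mean at 18 dpp. That table held 20368 genes, among them these 100 and 5167 other NONCODE genes. TPM is a share of all transcripts in the library, already corrected for transcript length, so levels of different genes could be compared. Because the levels at 8 and 18 dpp chose the members, those levels are given only as a description. Every test of a difference between ages compared only mice at 10, 12, 14 and 16 dpp, which the choice did not use. Samples standing apart within their group were also sought at 18 dpp and in the adult samples.

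Germ cells were isolated from male C57BL/6J mice every second day of age from 8 to 18 dpp, and each mouse was sequenced on its own (n = 3 at 8 dpp, n = 5 at the other ages). They came from dissociated seminiferous tubules, washed beforehand to take away interstitial cells, and were not sorted by stage, so each juvenile sample, labelled as germ cells, was a mixture of cells. In addition, 4 samples of pachytene and diplotene spermatocytes, each pooled from 6 C57BL/6J males of 9 weeks and enriched by sedimentation at unit gravity, were taken as the adult comparison. Poly-A RNA was measured, and in such bulk samples fewer cells of a type and less RNA per cell cannot be told apart.

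Long non-coding RNAs are transcripts without a recognised protein product, and NONCODE is a catalogue of them that gives each gene a number in place of a name. The testis is known for expressing a large number of such RNAs. In the juvenile testis the first wave of spermatogenesis proceeds nearly in step, so that spermatogonia are followed by leptotene, zygotene and then pachytene spermatocytes as the animal grows. The members have no assigned function or genome position in the tables analysed here, and their sequences and overlaps with other genes were not analysed here.

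From 8 to 18 dpp the members fell by 1.69 to 3.92 on the log2(TPM + 1) scale, with a median of 1.97, whereas the median difference in the same direction was 0.13 for all NONCODE genes and 0.09 for all genes. In 93 of the 100 every mouse at 18 dpp was below every mouse at 8 dpp, and in the other 7 the ages overlapped. Since these ages chose the members, little overlap follows from the choice, and the share over all genes was not counted. All 100 had a mean of at least 3 TPM at 8 dpp, the level that the table asks of a gene in at least 1 mouse. The limit of 100 did not mark a gap. NONMMUG012362, NONMMUG037642 and NONMMUG044868 were the last inside with differences of 1.69, 1.69 and 1.69, and NONMMUG007319, NONMMUG021481 and NONMMUG024058 were the first outside with 1.69, 1.69 and 1.67. NONMMUG021481 was the most abundant of these 6, at 129 ± 10.5 TPM (SD, n = 3) at 8 dpp and 39.5 ± 3.45 TPM (SD, n = 5) at 18 dpp, and missed the list only by that margin.

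The summed level of the 100 members declined at every age. It was 2168 ± 51.6 TPM (SD, n = 3 mice) at 8 dpp and 1624 ± 145 TPM at 10 dpp. At the following ages, from 12 to 18 dpp, it was 1082 ± 24.7, 998 ± 67.4, 790 ± 104 and 505 ± 107 TPM (SD, n = 5 mice at each age from 10 dpp). No mouse at 12 dpp reached the lowest mouse at 10 dpp, whereas the mice at 12 and 14 dpp overlapped. Those at 14 and 16 dpp also overlapped, with a lowest sum of 939 TPM at 14 dpp and a highest of 956 TPM at 16 dpp. The mean fell least from 12 to 14 dpp. The word lost held for only some of the members. The number with a mean of at least 3 TPM went from 100 at 8 dpp to 79, 60, 54, 46 and 33 at the following ages, and only 5 members were listed at 0 in every mouse at 18 dpp.

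**Figure D1:**
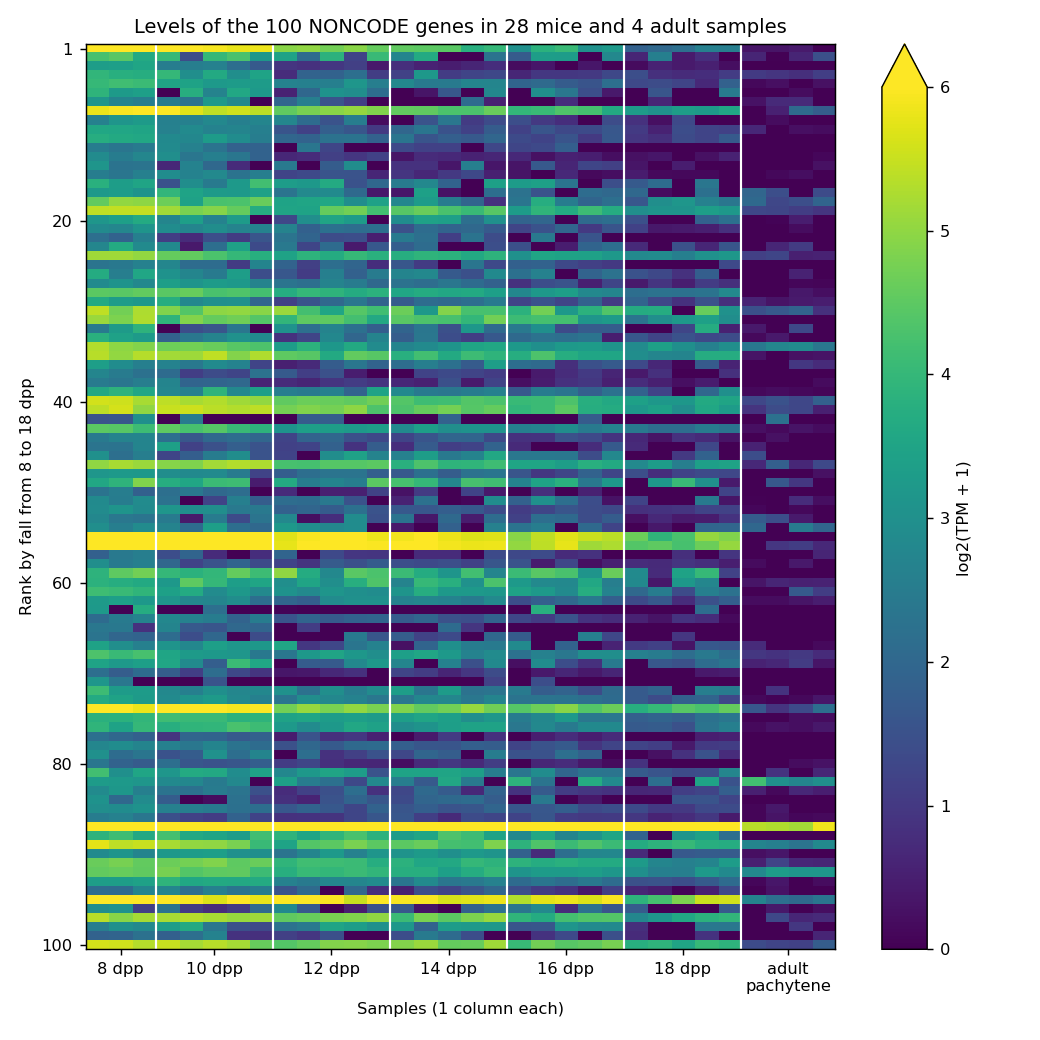
Level of each of the 100 members (1 line each, ordered from the largest fall at the top) in each of the 28 juvenile mice and 4 adult samples (1 column each), as log2(TPM + 1) with colours saturating at 6. Nearly every line darkens from left to right, several abundant members remain bright at 18 dpp, and most are dark in the adult samples, whose table was normalised separately.

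The fall was also found in the mice that had not been used to choose the genes. Between 10 and 16 dpp, 66 of the 100 members were lower and 0 were higher (limma on log2(TPM + 1), adjusted p below 0.05 over all 20368 genes), against 25.2% of all genes and 16.1% of NONCODE genes called lower and 29.4% of all genes called higher. The median change of the members was -1.01, compared with 0.02 for all genes and 0.02 for the 5167 other NONCODE genes. In 47 members every mouse at 16 dpp was below every mouse at 10 dpp, which was the case for 17.5% of all genes. When all NONCODE genes were ranked by their fall from 10 to 16 dpp alone, 48 of the 100 members, among them all 10 leading members, stood within the 100 largest falls, which hold 1.90% of the NONCODE genes, and 79 stood within the 500 largest.

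**Figure D2:**
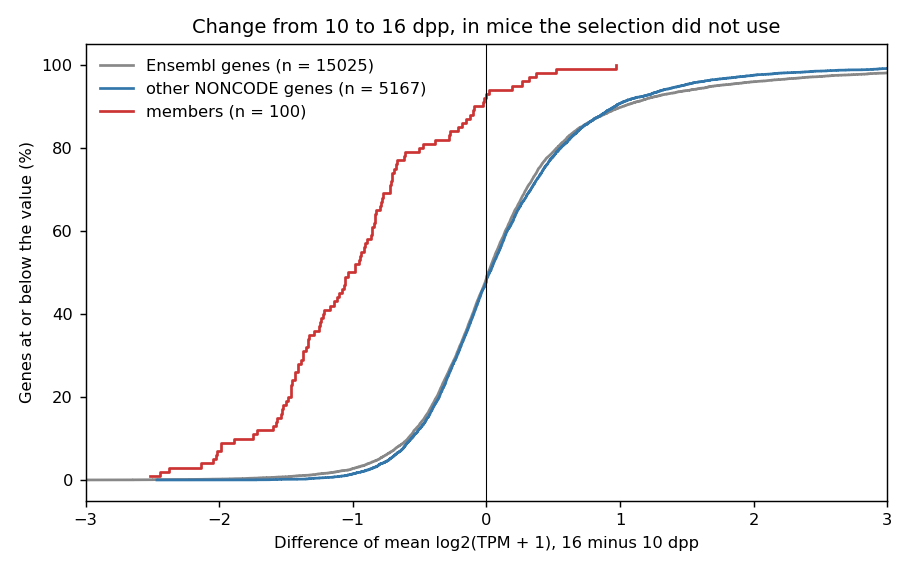
Cumulative share of genes (vertical axis, %) at or below a given change of mean log2(TPM + 1) from 10 to 16 dpp (horizontal axis, drawn from -3 to 3) for the 100 members, 5167 other NONCODE genes and 15025 Ensembl genes. The curve of the members lies to the left with a median of -1.01, and the other curves run together and cross 0 near their middle.

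The index sequences in the labels of the 5 libraries at 10 dpp recur at 16 dpp, so libraries of these ages with the same index cannot have shared a sequencing pool. How far pools and these ages coincide is not known, so a difference between pools may be mixed with one between these ages. No index recurs between 10 and 12 dpp or between 14 and 16 dpp, but the labels do not say which libraries shared a pool. From 10 to 12 dpp, 42 members were lower and 1 was higher, against 10.8% of all genes lower and 13.4% higher, with a median change of -0.56. From 14 to 16 dpp, 27 members were lower and 0 higher, against 14.3% of all genes lower and 14.5% higher, with a median change of -0.39. From 12 to 14 dpp 0 members were lower and 0 were higher by limma, against 0.0295% and 0.0786% of all genes, with a median change of -0.09. At an unadjusted limma p below 0.05 the counts for that step were 9 members lower and 2 higher, against 624 lower and 1796 higher among all 20368 genes. By step, 21 members fell both from 10 to 12 and from 14 to 16 dpp, 21 from 10 to 12 dpp only and 6 from 14 to 16 dpp only. A further 19 were lower at 16 than at 10 dpp without passing in either step (10 to 12 or 14 to 16 dpp), and 33 were not called lower in any of these comparisons. The shares of all genes in these classes were not counted, so the split is not read as particular to the members.

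NONMMUG015059 had the largest fall of all NONCODE genes, both from 8 to 18 dpp and from 10 to 16 dpp. Its level was 65.3, 76.6 and 73.9 TPM in the mice at 8 dpp and 72.0, 63.3, 59.0, 55.1 and 56.6 TPM at 10 dpp. At 12 dpp it was 29.7, 31.2, 25.6, 29.3 and 22.8 TPM, and at 14 dpp 22.1, 21.5, 21.1, 12.9 and 15.0 TPM. The ages 10 and 12 dpp did not overlap, nor did 12 and 14 dpp. At 16 dpp the mice gave 7.04, 13.1, 15.8, 7.26 and 8.50 TPM, and at 18 dpp 2.66, 3.09, 3.60, 5.15 and 4.97 TPM. The change from 10 to 16 dpp was -2.51 (SE 0.19, limma adjusted p = 1.17e-09), with all 5 mice at 16 dpp below all 5 at 10 dpp.

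NONMMUG032436 was at 9.13, 9.46 and 10.5 TPM at 8 dpp and was lower at 10 and again at 12 dpp. Its levels were 4.80, 4.94, 5.19, 3.49 and 2.24 TPM at 10 dpp and 0.90, 0.81, 0.96, 1.19 and 0.33 TPM at 12 dpp. Every mouse at 12 dpp was below every mouse at 10 dpp (change -1.46, SE 0.17, limma adjusted p = 4.88e-06). At 16 dpp it was 0.14, 0.29, 0, 0.29 and 0 TPM, so the change from 10 to 16 dpp of -2.14 (SE 0.17, limma adjusted p = 3.17e-09) ended near the lowest values the table gives, and it was listed at 0 in all 4 adult samples. NONMMUG034214, a more abundant member, fell over the whole window. It was at 64.3, 51.8, 41.9, 46.1 and 41.3 TPM at 10 dpp and at 14.8, 15.8, 19.5, 17.7 and 11.6 TPM at 16 dpp, without overlap (change -1.57, SE 0.14, limma adjusted p = 9.28e-09).

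Other members of the leading 10 passed less evenly. NONMMUG030026 changed by -1.27 from 10 to 12 dpp (SE 0.19, limma adjusted p = 7.17e-05) and by -1.29 from 10 to 16 dpp, so that the change over the whole window was that of its early step. NONMMUG023520 and NONMMUG016994 fell by 2.03 and 1.75 from 10 to 16 dpp (limma adjusted p = 0.00414 and 0.00205) but passed neither from 10 to 12 nor from 14 to 16 dpp. NONMMUG033739 and NONMMUG008290, placed at ranks 2 and 6 by the choice, did not pass from 10 to 16 dpp. NONMMUG033739 gave 15.2, 1.63, 14.8, 18.5 and 8.11 TPM at 10 dpp and 2.30, 9.20, 8.91, 0 and 5.94 TPM at 16 dpp, and the ages overlapped (change -1.14, SE 0.81, limma adjusted p = 0.249). Without mouse 4 at 16 dpp its change was -0.58. NONMMUG008290 gave 0.01, 12.6, 5.38, 11.1 and 8.42 TPM at 10 dpp and 0, 6.79, 4.19, 1.73 and 0.33 TPM at 16 dpp, again with overlap (change -1.22, SE 0.74, limma adjusted p = 0.176). Without mouse 1 at 10 dpp, which was at 0.01 TPM, it passed with a change of -1.88 (limma adjusted p = 0.023).

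**Figure D3:**
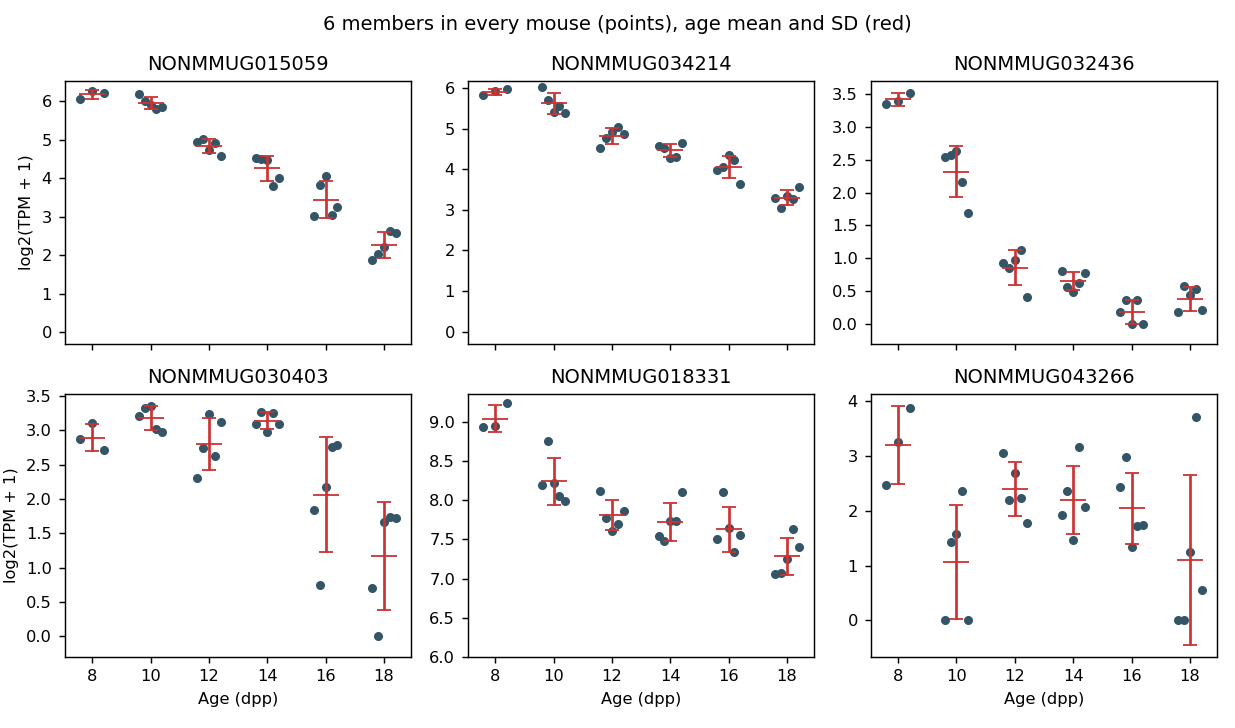
Level of 6 members in each mouse as log2(TPM + 1) against age in dpp (points), with the mean and SD of each age in red (n = 3 mice at 8 dpp and 5 at each other age) and a separate vertical scale in each panel that starts above 0 for NONMMUG018331. NONMMUG015059, NONMMUG034214 and NONMMUG032436 fall from 10 to 16 dpp without overlap of these ages, NONMMUG030403 stays level to 14 dpp, and NONMMUG043266 spreads widely at 10 and 18 dpp.

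The largest falls from 10 to 16 dpp also came from members of lower level. NONMMUG026069 was at 6.54, 5.28, 6.10, 3.87 and 4.95 TPM at 10 dpp and at 0.25, 0, 0.61, 0.11 and 0.16 TPM at 16 dpp. These ages were far apart (change -2.38, SE 0.19, limma adjusted p = 2.93e-09), although at 8 dpp, with 4.85, 4.05 and 5.07 TPM, it had been within the range of the mice at 10 dpp. NONMMUG020550 fell by 2.04 (SE 0.58, limma adjusted p = 0.00536). The steepest falls from 10 to 12 dpp were those of NONMMUG032781 (-1.84, SE 0.36, limma adjusted p = 0.000802), NONMMUG040419 (-1.77, SE 0.34, limma adjusted p = 0.000712) and NONMMUG040996 (-1.59, SE 0.45, limma adjusted p = 0.014).

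A fall from 14 to 16 dpp without one from 10 to 12 dpp was called in 6 members. NONMMUG030403 was at 8.24, 9.03, 9.27, 7.13 and 6.83 TPM at 10 dpp and at 3.95, 5.68, 8.42, 5.17 and 7.68 TPM at 12 dpp. Some mice at 12 dpp were below all mice at 10 dpp, but the step was not called (change -0.37, SE 0.28, limma adjusted p = 0.38). At 14 dpp it was at 7.52, 8.67, 6.89, 8.50 and 7.57 TPM. It was then at 2.57, 0.68, 3.52, 5.79 and 5.91 TPM at 16 dpp, below every mouse at 14 dpp (change -1.08, SE 0.28, limma adjusted p = 0.00717). NONMMUG007407 fell both from 10 to 12 dpp and from 14 to 16 dpp and was 2.01 lower on the log2 scale at 16 than at 10 dpp (SE 0.18, limma adjusted p = 2.12e-08). NONMMUG005639 passed from 14 to 16 dpp alone, with 1.56, 2.90, 3.11, 3.36 and 2.42 TPM at 14 dpp and 0, 4.34, 0, 0.31 and 0 TPM at 16 dpp (change -1.29, SE 0.46, limma adjusted p = 0.0419). Mouse 2 at 16 dpp stood above all mice at 14 dpp, and from 10 to 16 dpp the gene did not pass (change -0.50, SE 0.46, limma adjusted p = 0.374).

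The most abundant members were not those with the largest log2 change. NONMMUG018331 was at 488, 495 and 607 TPM at 8 dpp, 22.2% to 27.6% of the summed level of the members. It was at 293, 432, 298, 265 and 253 TPM at 10 dpp and 181, 275, 199, 162 and 188 TPM at 16 dpp, and mouse 2 at 16 dpp overlapped the mice at 10 dpp (change -0.61, SE 0.15, limma adjusted p = 0.00216). NONMMUG033005 held 121, 103, 110, 91.6 and 90.2 TPM at 10 dpp and 31.6, 41.4, 54.1, 34.6 and 37.1 TPM at 16 dpp without overlap (change -1.37, SE 0.12, limma adjusted p = 1.37e-08). NONMMUG031400, at 90.2 ± 5.83 TPM (SD, n = 3) at 8 dpp, did not pass. Its 68.4, 60.0, 50.7, 83.1 and 54.3 TPM at 10 dpp overlapped with 38.5, 52.8, 56.6, 50.2 and 60.6 TPM at 16 dpp (change -0.28, SE 0.15, limma adjusted p = 0.127).

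The 34 members that were not called lower from 10 to 16 dpp were less abundant and more variable than the 66 that were. Their median level at 10 dpp was 4.19 TPM against 8.09 TPM, and their median SE of the change was 0.47 against 0.19. Among the 34, 27 had a change below 0 and 7 above 0. The only call in the opposite direction was NONMMUG043266 from 10 to 12 dpp. It was at 0, 1.69, 1.97, 4.15 and 0 TPM at 10 dpp and 7.37, 3.60, 5.47, 3.68 and 2.45 TPM at 12 dpp (change 1.32, SE 0.43, limma adjusted p = 0.0315), after 4.53, 8.58 and 13.8 TPM at 8 dpp. Mouse 4 at 10 dpp overlapped the mice at 12 dpp, and from 10 to 16 dpp the change of 0.97 (SE 0.43) did not pass (limma adjusted p = 0.0652). It passed without mouse 4 at 10 dpp (1.29, limma adjusted p = 0.0134) and without mouse 3 at 16 dpp (1.15, limma adjusted p = 0.0412). Of the others with a change above 0, NONMMUG002375 (0.52, SE 0.54), NONMMUG015665 (0.37, SE 0.73), NONMMUG007722 (0.32, SE 0.57) and NONMMUG004147 (0.26, SE 0.51) did not pass. NONMMUG007722 was listed at 0 in 4 of the 5 mice at 10 dpp and in 4 of the 5 at 16 dpp.

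The members were not unusual in the number of their transcripts. In 62 of the 100 the catalogue listed a single transcript, as in 62.7% of the other NONCODE genes, and 79 had only 1 transcript at a mean of 1 TPM or more at some age. In members with more than 1, the estimation program divided reads between overlapping models, and in 4 members a pair of transcripts had equal values in all 28 mice, so that the split between them carried no information.

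In NONMMUG032781 the fall was carried by 1 of its 2 transcripts. NONMMUT052783 was at 13.1, 5.35, 10.3, 5.35 and 9.30 TPM at 10 dpp, at 0, 2.03, 0.99, 1.75 and 0 TPM at 12 dpp and listed at 0 in all mice at 16 dpp. The other transcript, NONMMUT052782, was at 1.81, 1.45, 1.26, 1.48 and 0.92 TPM at 10 dpp and at 0.57, 0.95, 0.95, 0.99 and 1.46 TPM at 16 dpp, and these ranges overlapped. Mouse 2 at 14 dpp was an exception, with 6.47 TPM of NONMMUT052783 when the other mice of that age were listed at 0.

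NONMMUG008285 had the most transcripts at a mean of 1 TPM or more, 5, followed by NONMMUG044868 with 4. Its total at 10 and 16 dpp did not overlap, with 10.3, 9.99, 8.43, 8.77 and 8.86 TPM at 10 dpp and 2.84, 3.18, 2.33, 1.93 and 3.60 TPM at 16 dpp (change -1.46, SE 0.14, limma adjusted p = 2.57e-08). The division between transcripts differed between mice. NONMMUT013071 held 11.2, 13.0 and 9.35 TPM at 8 dpp and was listed at 0 in all mice at 10 and 12 dpp, where NONMMUT013070 or NONMMUT013069 took most of the total. At 14 dpp NONMMUT013071 was at 5.12 TPM in mouse 4 and listed at 0 in the other 4 mice. NONMMUG044868, with 36 transcripts listed and 4 at a mean of 1 TPM or more, had most of its level in NONMMUT072386, at 37.5 TPM at 8 dpp and 17.5 TPM at 16 dpp, and fell from 10 to 16 dpp (-0.67, SE 0.17, limma adjusted p = 0.00236). NONMMUG013864, 1 of 5 members with 3 such transcripts, fell by 1.99 on the log2 scale (SE 0.17, limma adjusted p = 7.69e-09).

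**Figure D4:**
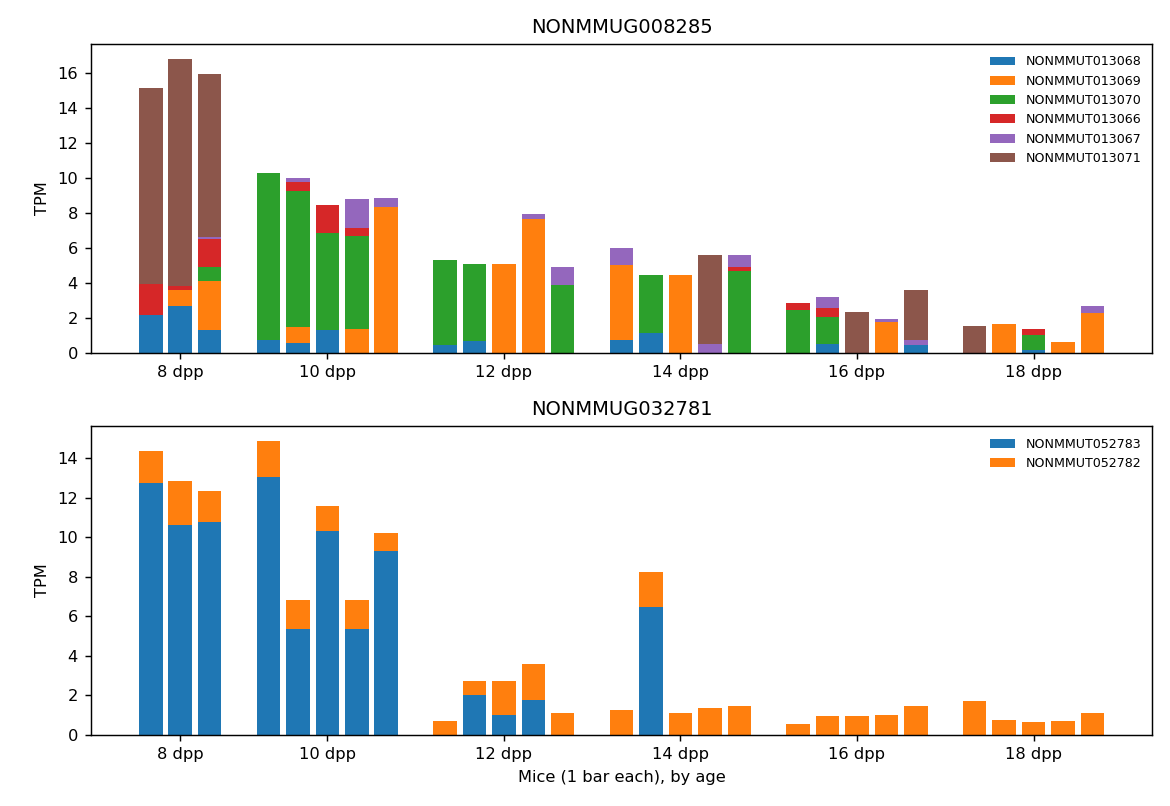
Level in TPM of each transcript (stacked colours) of NONMMUG008285 and NONMMUG032781 in each mouse (1 bar each), grouped by age. The leading transcript of NONMMUG008285 differs between mice of the same age from 10 dpp on, and NONMMUT052783 of NONMMUG032781 is high at 8 and 10 dpp and at 0 in all mice at 16 and 18 dpp.

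Annotated genes with the most like profile were sought for the 5 leading members, by the smallest root mean square difference of log2(TPM + 1) over the 20 mice at 10 to 16 dpp after each gene was centred. NONMMUG015059 was most like Shisa8 (ENSMUSG00000096883, chromosome 15, 82206168 to 82212815, minus strand, GRCm38), a member of a family of membrane proteins, with a difference of 0.15 when the spread of NONMMUG015059 about its own mean was 0.96. The ratio of the level of NONMMUG015059 to that of Shisa8 had a median of 0.33 at 10 dpp (0.325 to 0.359 across mice) and 0.35 at 16 dpp (0.292 to 0.398). Shisa8 was picked for its likeness in these same mice, so a steady ratio from 10 to 16 dpp follows from the search. As a description only, since these ages chose NONMMUG015059, the median ratio was 0.34 at 8 dpp and 0.34 at 18 dpp. NONMMUG032436 was most like Hsd17b3, which encodes the enzyme that makes testosterone from androstenedione (difference 0.22), NONMMUG008285 most like Insig1, a regulator of sterol synthesis (0.21), and NONMMUG032781 most like Farp1, a guanine nucleotide exchange factor (0.47). NONMMUG033739 had no close match, since its best, the pseudogene Gm15607, differed by 1.09 when the spread of NONMMUG033739 itself was 1.39. Whether these members and genes overlap in the genome was not analysed here.

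Markers of the cells that the samples could hold were examined beside these falls. Of 10 Sertoli cell markers 7 were lower and 1 higher at 16 than at 10 dpp, with a median of -0.56, although the cells were labelled as germ cells. The paper also counted stained cells and reports that germ cells were the large majority in each juvenile sample. The summed level of the Sertoli markers was 8565 to 9390 TPM at 10 dpp and 6363 to 8628 TPM at 16 dpp. It was 4216 to 5536 TPM at 18 dpp and 355 to 531 TPM in the adult samples, and no Sertoli marker was at 0. Amh, the anti-Müllerian hormone of immature Sertoli cells, fell from 336 to 103 TPM (change -1.70, limma adjusted p = 2.06e-09), Gata4 changed by -1.14, Wt1 by -1.12 and Dhh by -0.99 (limma adjusted p = 8.42e-10, 3.81e-09 and 3.32e-10). Sox9, Inha and Clu changed less, by -0.67, -0.45 and -0.23 (limma adjusted p = 2.13e-06, 0.000478 and 0.026). Cst12 and Fshr did not pass (0.03 and -0.05, limma adjusted p = 0.779 and 0.705). Rhox5, a homeobox gene of Sertoli cells, rose by 0.97 (limma adjusted p = 7.1e-05). From 10 to 12 dpp 4 of the 10 were lower and 2 higher, and from 14 to 16 dpp 5 were lower and 0 higher.

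Of 16 markers of spermatogonia and early germ cells 10 were lower and 3 higher at 16 than at 10 dpp, with a median of -0.33, and their summed level was 1567 to 1742 TPM at 10 dpp and 1517 to 1639 TPM at 16 dpp. Dmrt1, which marks spermatogonia and Sertoli cells, fell by 0.73, and Stra8, the gene of meiotic entry, by 0.38 on the log2 scale (limma adjusted p = 7.45e-10 and 0.000291). The 3 that rose were Id4, a gene of spermatogonial stem cells, by 2.06, Ddx4, a germ cell helicase, by 1.18 and Dazl, a germ cell RNA-binding protein, by 0.35 (limma adjusted p = 1.97e-11, 6.74e-09 and 0.000252). Of 10 symbols listed for late pachytene, 7 were in the gene table, without Hist1h1t and Acrv1, and all 7 were higher. Leydig cell markers were 0 lower and 3 higher of 6, peritubular markers 0 lower and 0 higher of 5, macrophage markers 0 lower and 5 higher of 5, endothelial markers 1 lower and 0 higher of 4, and red blood cell markers 0 lower and 1 higher of 5. The part of these cell types in the result was not tested.

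Of 41 known long non-coding RNA genes listed for comparison, 34 were matched by symbol and 20 were in the gene table. At 16 dpp 7 of them were lower and 2 higher than at 10 dpp, with a median of -0.11. H19, an imprinted RNA of fetal and juvenile tissues, was the steepest, from 131 to 24.4 TPM (change -2.41, SE 0.13, limma adjusted p = 2.74e-11), beside -2.51 for NONMMUG015059. Rian, from another imprinted locus, changed by -0.72 (SE 0.13, limma adjusted p = 0.000122), and Gas5, a host of small nucleolar RNAs, by -0.28 (SE 0.08, limma adjusted p = 0.00462). Nespas and Snhg5 were higher, by 1.07 and 0.42 (limma adjusted p = 5.44e-06 and 0.00137).

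In the enriched adult spermatocytes the members were rarely present. At least 3 TPM in at least 1 of the 4 samples was reached by 11 members, compared with 46.4% of all NONCODE genes, and 22 members were listed at 0 in all 4 samples, compared with 5.11% of all NONCODE genes. The median of the adult means was 0.13 TPM for the members and 1.80 TPM for the other NONCODE genes. The members were chosen for a low level at the last juvenile age, when the paper found late pachytene cells abundant. Their rarity in these adult cells may therefore follow from the choice. The other NONCODE genes needed 3 TPM in only 1 juvenile mouse of any age, so the shares are given as a description only. The adult table was normalised separately, so these levels were not tested against those of the juvenile mice.

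Members present in the adult samples differed in their juvenile course. NONMMUG018331 was at 40.2, 38.2, 35.2 and 57.6 TPM, and NONMMUG031657, which was lower at 16 than at 10 dpp (-1.21, SE 0.11, limma adjusted p = 2.89e-08), was at 5.93, 9.04, 7.88 and 7.90 TPM. NONMMUG015665 was at 17.3, 6.88, 5.56 and 6.87 TPM, so that 1 sample stood apart, and it was listed at 0 in 2 of the 5 mice at 18 dpp. NONMMUG015059, the leading member, was at 0.26, 0.26, 0.34 and 0 TPM, and NONMMUG033005 at 0, 0.93, 1.14 and 0.61 TPM, both far under their juvenile levels.

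**Figure D5:**
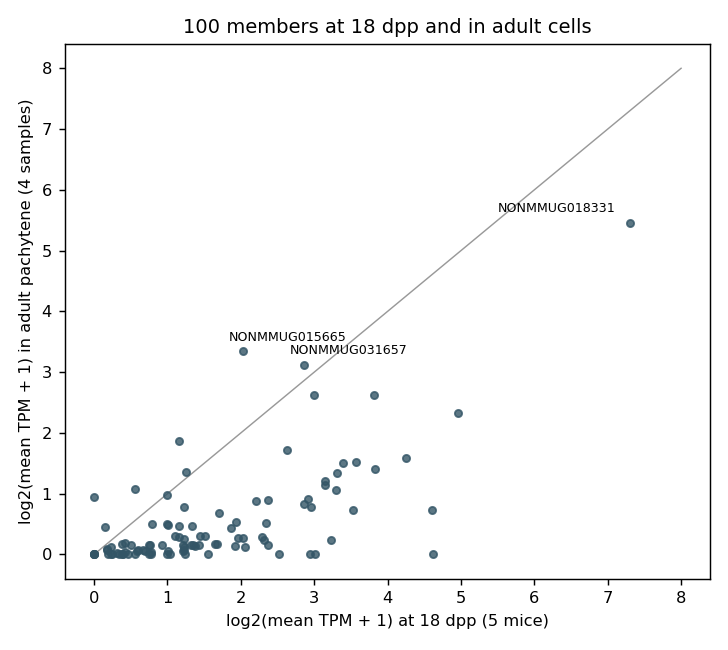
Mean level of each of the 100 members in the 4 adult samples (vertical axis) against that in the 5 mice at 18 dpp (horizontal axis), both as log2(mean TPM + 1), with the line of equal values. Most members lie below the line and near 0 on the adult axis, NONMMUG018331 is the highest on both, and NONMMUG015665 and NONMMUG031657 lie above the line.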

How the data were processed

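Germ cell RNA of 28 juvenile mice and 4 adult pools was sequenced by the authors as poly-A libraries, aligned with Bowtie 1.0.0 to Ensembl release 75 and NONCODE 4 transcripts together, and quantified as TPM with RSEM 1.2.8. Reads of overlapping models can therefore be divided between them, and the counting is not stated to use strand. The deposited transcript and adult tables held TPM. The deposited juvenile gene table held a score, exp(log2(TPM + 1)) - 1, instead of the TPM assumed, and was converted back. The converted values were within 0.2 TPM of the summed transcripts for 20288 of 20368 genes, and the 80 others were no NONCODE genes. Genes in that table reach 3 TPM in at least 1 mouse. TPM keeps no counts, so depth and counting error are unknown and error is the spread between mice. A value of 0 may be a failed estimate.

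limma 3.58.1 in R 4.3.3, with a prior variance that followed mean expression, was fitted to log2(TPM + 1) of the 20 mice at 10 to 16 dpp, with Benjamini-Hochberg adjustment over all 20368 genes in each comparison. A change is on the log2(TPM + 1) scale, which understates the change of low genes. The script was tested on simulated data. Replicates of 1 age correlated between 0.947 and 0.984 (r, across genes), and no files were identical. Gene names and positions came from GENCODE M21 (GRCm38), with 14896 of 15025 Ensembl identifiers matched.

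Members, marker lists and named genes were chosen with earlier results of these data known. Named were the 10 members with the largest fall from 8 to 18 dpp, the 3 highest at 8 dpp, the 5 largest called falls from 10 to 16 dpp and the 3 largest of each step, the 5 most positive changes, the 3 highest in adults, 3 on each side of the limit, the 3 with the most transcripts, and the most like Ensembl gene of 5 members. The alternatives were the pseudocount, filter, scaling, prior, mice and genes in the fit, each mouse left out, and the mouse number as a block. The substage column of the authors was not used.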

Additional observations from a re-analysis of the deposited data

Results flagged for a closer look

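The members named by the rule were examined for samples standing apart in their age group (Dixon's test at the 95% level, groups of 4 or 5), and 25 of 171 groups held one. Where a member was detected in only 1 sample of a group, the test flags that group whatever the level. An example is NONMMUG007722 at 12 dpp, with 0.04 TPM in mouse 1. The count of flagged groups can therefore not be compared with a rate given by chance. Levels are given in TPM, and no cause was tested.

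Several were mice above the rest of their age. NONMMUG033739 was at 5.04 in mouse 2 at 18 dpp when the others reached at most 0.72. NONMMUG032781 was at 8.23 in mouse 2 at 14 dpp (others up to 1.48), and NONMMUG008285 at 7.94 in mouse 4 at 12 dpp (others up to 5.32). NONMMUG023520 was at 3.32 in mouse 4 at 14 dpp (others up to 0.46), at 0.72 in mouse 3 at 16 dpp and at 0.57 in mouse 2 at 18 dpp, the other mice of the last ages being listed at 0. NONMMUG043266 was at 12.2 in mouse 4 at 18 dpp (others up to 1.38). NONMMUG040419 was at 1.10 in mouse 2 at 12 dpp with the others at 0, and at 3.25 in mouse 3 at 14 dpp (others up to 0.90). NONMMUG005639 was at 4.34 in mouse 2 at 16 dpp (others up to 0.31), and NONMMUG018331 at 432 in mouse 2 at 10 dpp (others up to 298).

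NONMMUG007722 was detected in a single mouse at 4 ages, at 3.58 in mouse 3 at 10 dpp, 0.04 in mouse 1 at 12 dpp, 12.8 in mouse 2 at 16 dpp and 3.43 in mouse 4 at 18 dpp, and listed at 0 in the other mice of these ages. Mice below the rest were fewer. NONMMUG040996 was listed at 0 in mouse 4 at 14 dpp (others at least 1.22), NONMMUG015665 at 0 in mouse 5 at 10 dpp (others at least 4.57), and NONMMUG012362 was at 2.70 in mouse 2 at 14 dpp (others at least 8.02).

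In the adult samples NONMMUG015665 was at 17.3 in sample 1 (others up to 6.88). In the rest the other 3 samples were listed at 0, with NONMMUG008290 at 0.14 in sample 3, NONMMUG016994 at 0.14 in sample 2, NONMMUG013864 at 0.07 in sample 4, NONMMUG004147 at 1.68 in sample 1, NONMMUG012362 at 0.96 in sample 3 and NONMMUG037642 at 0.53 in sample 4.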

How the results depend on the processing

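The counts of members called lower from 10 to 16, 10 to 12 and 12 to 14 dpp stayed within 1.5 times under the alternatives run. From 14 to 16 dpp the 27 became 16 without the filter on low genes, 43 under quantile normalization and 13 with mice 1 to 3 only. The share of all genes called lower in that step moved the same way, from 14.3% to 3.62%, 20.8% and 5.11% under these settings. With 1 mouse left out in turn the counts were 63 to 67 (10 to 16 dpp), 36 to 46 (10 to 12 dpp), 0 to 0 (12 to 14 dpp) and 18 to 27 (14 to 16 dpp), with the lowest of the last without mouse 1 at 16 dpp, and the number of members within the 100 largest falls from 10 to 16 dpp, 48, was 42 to 48. That number was 32 with a pseudocount of 0.1 and 41 with mice 1 to 3 only. The choice of the members depended on the pseudocount, since 54 of the 100 were chosen again with 0.1 and 64 with 3, and 82 to 92 with 1 mouse left out. In adults the 11 members became 31 at a limit of 1 TPM and 6 when all 4 samples had to pass, and 10 to 10 with 1 sample left out.

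Quantile normalization moved the median change of all genes to -0.11 (10 to 16 dpp), and the share of all calls that were lower from 46.1% to 59.3%. From 14 to 16 dpp that share went from 49.7% to 61.1%, and to 32.8% under median-of-ratios factors. No member was called higher from 10 to 16 or from 14 to 16 dpp under either. Among 30 named members, 670 of 689 values kept direction and call, 8 gained and 2 lost the call, and 9 reversed. NONMMUG012362 (-0.02) became 0.018 with a pseudocount of 0.1, and 0.21, 0.29, 0.19 and 0.18 without mouse 1 or 2 at 10 dpp and mouse 1 or 2 at 16 dpp, within -0.29 to 0.29 with any 1 mouse left out. NONMMUG015665 (0.37) became -0.64 with mice 1 to 3 only and -0.18 without mouse 5 at 10 dpp (-0.18 to 1.01 with 1 mouse left out), NONMMUG007722 (0.32) became -0.44 without mouse 2 at 16 dpp (-0.44 to 0.76), and NONMMUG005639 (-0.50) became 0.15 with mice 1 to 3 only and passed at -0.97 without mouse 2 at 16 dpp. The causes were not tested.

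Mice of different ages share only a number. Deviations of same-numbered mice had a median correlation of 0.0037 (30 pairs), and 2 of 20 mice correlated best with their own number. With the replicate block the counts were 66, 42, 0 and 25.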
